A study of Mus musculus with 6 samples.

Results

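The regions described here are the telomere-side ends of the 19 mouse autosomes, as seen in peak lists of methylated lung DNA. For each of chromosomes 1 to 19, the largest peak end over the 6 deposited peak lists was taken, and the peaks starting within 3 Mb below it were kept. They number 12917 of the 517635 peaks in the 6 lists. Each window was compared with the rest of the same chromosome. The rule used positions only, so densities, widths, scores and gene content were free to vary.

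The lists came from whole lungs of 3 transgenic and 3 wild-type mice aged 12 to 16 months. The transgenic animals carried SPC-DNMTdelta3B/DG, written ΔDNMT3B4-del in the labels' protocols, a truncated form of the de novo methyltransferase DNMT3B under the SPC promoter. The genotype of transgenic replicate 2 is spelled SPC-DNMTdeltaB/DG. The labels name no other treatment in either group. SPC, surfactant protein C, marks alveolar type 2 cells, while DNA of whole lung was captured. The cells in which the transgene was active were not measured here. The labels do not say which of the founder lines the 3 animals came from. The study asked what the transgene does in the lung. Methylated DNA was pulled down by a protein domain that binds methylated CpG sites (MBD-seq). A peak marks a place where captured fragments were enriched, and its score is the authors' caller's own value, which starts at 50 in each list and is not scaled between libraries. Read depth is unknown.

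Cytosine methylation at CpG sites is laid down by DNMT3A and DNMT3B and copied at cell division by DNMT1. It is dense over repeats and gene bodies and low over most CpG-rich promoters, and it marks 1 parental allele at imprinting control regions. Mouse autosomes carry the centromere at one tip, so the other tip is the far end of the only long arm. The telomere repeats and the sequence just below them are poorly covered by reference assemblies, and the windows therefore start at the last peak and not at the telomere. In human chromosomes the stretch below the telomere is often rich in genes and CpG sites.

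The transgenic lists held 120349, 116352 and 78952 peaks, against 60131, 111211 and 30640 in the wild-type lists. Wild type 3 stood apart, with the shortest list and a median peak width at the ends of 197.5 bp, against 373 to 464 bp in the other 5 libraries. The last peak of a chromosome came from wild type 3 on 6 of the 19 chromosomes, and the last peak of any transgenic list lay at most 41.8 kb from the edge of the window. Several results are also given without this library, with the windows still drawn from all 6 lists.

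Promoters that carried methylated DNA at the ends in every list were few. Of 1076 end promoters, taken as 250 bases before to 50 bases after a start, 6 overlapped a peak in all 6 lists (0.558%), against 130 of 30320 promoters in the rest of the autosomes (0.429%). The protein-coding ones were Csf2ra, Gtsf1 and Tex19.1. They are printed here from RefSeq (GRCm38.p6), 5′ to 3′, with each CG in capitals, beside a pair of promoters from the imprinted cluster at the end of chromosome 7, Kcnq1ot1 and Ascl2. These 5 were chosen after their values were seen, to show the CpG content under a peak and without one.
Csf2ra: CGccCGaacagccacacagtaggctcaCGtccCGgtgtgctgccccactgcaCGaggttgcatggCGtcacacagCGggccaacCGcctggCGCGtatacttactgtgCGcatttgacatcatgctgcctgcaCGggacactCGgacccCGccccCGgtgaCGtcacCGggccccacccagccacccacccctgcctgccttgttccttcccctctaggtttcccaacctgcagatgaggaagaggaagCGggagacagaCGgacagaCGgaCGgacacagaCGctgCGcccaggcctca
Gtsf1: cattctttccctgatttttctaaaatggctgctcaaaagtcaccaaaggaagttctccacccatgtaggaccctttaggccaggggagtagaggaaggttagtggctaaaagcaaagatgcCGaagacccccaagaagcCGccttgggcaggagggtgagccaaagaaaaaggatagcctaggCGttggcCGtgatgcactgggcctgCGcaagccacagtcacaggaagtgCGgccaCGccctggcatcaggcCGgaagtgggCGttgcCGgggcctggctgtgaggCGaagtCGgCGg
Tex19.1: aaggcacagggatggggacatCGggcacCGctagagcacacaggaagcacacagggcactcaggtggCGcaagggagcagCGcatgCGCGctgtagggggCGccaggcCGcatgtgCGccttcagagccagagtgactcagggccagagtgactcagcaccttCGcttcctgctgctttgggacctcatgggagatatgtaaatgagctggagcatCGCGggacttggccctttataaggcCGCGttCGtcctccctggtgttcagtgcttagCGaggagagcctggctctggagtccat
Kcnq1ot1: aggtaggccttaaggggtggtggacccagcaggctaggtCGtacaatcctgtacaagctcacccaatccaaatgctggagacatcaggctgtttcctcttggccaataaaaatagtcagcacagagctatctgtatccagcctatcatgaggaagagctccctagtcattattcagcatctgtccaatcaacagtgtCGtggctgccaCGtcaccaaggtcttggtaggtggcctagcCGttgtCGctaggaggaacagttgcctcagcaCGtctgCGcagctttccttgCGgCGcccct
Ascl2: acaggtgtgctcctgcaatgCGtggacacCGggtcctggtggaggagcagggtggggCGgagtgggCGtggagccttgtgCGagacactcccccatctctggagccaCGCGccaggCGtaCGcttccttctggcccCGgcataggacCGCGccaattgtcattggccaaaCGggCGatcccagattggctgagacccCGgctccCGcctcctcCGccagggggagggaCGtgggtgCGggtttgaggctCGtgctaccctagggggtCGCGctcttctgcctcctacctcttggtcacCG
The Csf2ra window lies on the minus strand at chr19:61228369-61228668, Gtsf1 on the minus strand at chr15:103430378-103430677 and Tex19.1 on the plus strand at chr11:121145893-121146192. Kcnq1ot1 lies on the minus strand at chr7:143296498-143296797 and Ascl2 on the minus strand at chr7:142969215-142969514.

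The letters CG read the same on both strands and stood at least once in 94.8% of 31396 such windows. Csf2ra held 23 of them, Gtsf1 13, Tex19.1 16, Kcnq1ot1 9 and Ascl2 23. Csf2ra encodes a chain of the receptor for the cytokine GM-CSF, which alveolar macrophages need. Its promoter peak scored 431, 198 and 158 in the transgenic lists, against 79.6, 245 and 84.1 in the wild-type lists. Gtsf1 acts in the piRNA pathway that silences transposons in germ cells. Its promoter peak scored 477, 445 and 144 in the transgenic lists, against 78.2, 291 and 73.4 in the wild-type lists. Tex19.1, a germline and placental gene that restrains retrotransposons, had promoter scores of 437, 362 and 194 in the transgenic lists, against 122, 306 and 58.2 in the wild-type lists. In all 3 genes the unscaled scores of the groups overlapped, with wild type 2 above transgenic 3, a shorter list. Ascl2, a transcription factor of the placenta, has as many CG as Csf2ra and had no peak over this window in any list.

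Promoter overlap differed between classes of CpG content. In promoters with 5 to 14 CG, 12.1%, 10.4% and 8.47% of 307 end promoters overlapped a peak in the transgenic lists, against 5.21%, 11.4% and 1.30% in the wild-type lists. In those with 15 or more, the shares of 410 end promoters were 3.66%, 3.17% and 2.93% in the transgenic lists, against 0.976%, 3.17% and 0.732% in the wild-type lists. In the rest of the autosomes, 12.4%, 10.4% and 7.01% of 8222 promoters with 5 to 14 CG overlapped a peak in the transgenic lists, against 4.51%, 10.7% and 1.30% in the wild-type lists. Of 10643 with 15 or more, 2.92%, 2.13% and 2.02% did in the transgenic lists, against 1.23%, 2.21% and 0.799% in the wild-type lists. Promoters with 0 to 4 CG were covered less often than those with 5 to 14. Of 359 at the ends, 2.51%, 3.34% and 1.11% were in transgenic lists, against 0.279%, 2.79% and 0% in wild-type lists. Of 11455 in the rest, 2.23%, 1.76% and 0.925% were in transgenic lists, against 0.698%, 2.05% and 0.0960% in wild-type lists. In each of the 6 lists the promoters of middle CpG content were thus covered most often, at the ends and in the rest.

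Averaged over the autosomes, the last 3 Mb held slightly more peaks per Mb than the rest. Transgenic lists held 53.0, 50.2 and 34.8 peaks per Mb at the ends and 47.6, 46.0 and 31.0 in the rest. Wild-type lists held 27.0, 49.2 and 12.4 peaks per Mb at the ends and 23.6, 43.9 and 11.8 in the rest. The ends were denser in 6 of 6 libraries, by 1.11-fold (mean log2 ratio 0.147 ± 0.0425, SD, n = 6; two-sided exact sign-flip permutation test, p = 0.03125, the smallest it can give). The libraries share 1 genome, so this p measures the spread between animals and says nothing of chance among stretches of sequence. The value depended on where the window stopped and on how chromosomes were combined. With windows of 5 Mb the mean log2 ratio was 0.384 (exact permutation p = 0.03125), and at 3 Mb it was 0.0587 without chromosome 4 and 0.0814 without chromosome 11. With windows of 2 Mb it was -0.0529, the median chromosome gave -0.0107, and peaks outside genes gave 0.0290 (exact permutation p = 0.15625, 0.5625 and 0.15625). Among peaks scoring 96.3 or more, the median of the pooled lists, it was 0.0993 (exact permutation p = 0.09375). Against the window at the opposite, centromere-side tip the mean log2 ratio was -0.001 ± 0.125 (SD, n = 6; exact permutation p = 1), and wild type 3 was at -0.25 and the other 5 libraries were above 0. Without wild type 3 that mean was 0.0489 (exact permutation p = 0.0625, the smallest 5 libraries allow). The ends were sparser than that tip with 2 Mb windows, at -0.248, with each list limited to its 30640 strongest peaks, at -0.252, and for peaks scoring at least the pooled median, at -0.207 (exact permutation p = 0.03125 for each). With 5 Mb windows the ratio was 0.297 (exact permutation p = 0.0625).

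The groups did not separate on this measure. The log2 ratio of end to rest was 0.149 ± 0.0198 in transgenic and 0.145 ± 0.0641 in wild-type libraries (SD, n = 3 each), a difference of 0.0035 (two-sided exact permutation test, p = 0.90; 3 against 3 cannot go below 0.10). Without transgenic 3 the difference was -0.0047 and without wild type 3 it was -0.0323.

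Chromosomes differed far more than groups. The ends of chromosomes 4, 11, 2, 15, 16, 10 and 9 were denser than the rest in every list, which is 36.8% of the 19, while 26.1% of all 792 consecutive 3 Mb windows of the autosomes were denser than the rest of their chromosome in all 6 lists. The ends of chromosomes 17, 3, 18, 19, 12, 8, 13 and 1 were sparser in every list, which is 42.1%, against 42.2% of all windows. These 15 passed the exact sign-flip permutation test with Benjamini-Hochberg adjustment over 19 chromosomes (adjusted p = 0.0396 for each), and with any library left out no chromosome can pass, since 5 libraries cannot give a p below 0.0625. A window with the same sign in all lists was thus common along the autosomes.

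Chromosome 4 had the densest end, with 371, 323 and 230 peaks in the transgenic lists, against 164, 347 and 66 in the wild-type lists. That was 2.22-fold the density of its rest (mean log2 ratio 1.15 ± 0.18, SD, n = 6), and in rank it was the third densest of the chromosome's 51 windows. Chromosome 11 followed with 313, 286 and 199 peaks in the transgenic lists, against 157, 289 and 59 in the wild-type lists, 1.91-fold its rest. Chromosome 2 stood at 1.51-fold. At the other extreme, the end of chromosome 17 held 70, 76 and 58 peaks in the transgenic lists, against 48, 63 and 31 in the wild-type lists, 0.489-fold its rest, and 3 protein-coding genes started in it. Chromosomes 3, 18 and 19 had 0.629-fold, 0.703-fold and 0.705-fold. Chromosomes 5, 6, 7 and 14 had mixed signs. On chromosome 5 the only library below 0 was wild type 3. For no chromosome did the group difference pass (smallest exact permutation p = 0.10, on 1 chromosome; smallest adjusted p = 0.792).

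**Figure D1:**
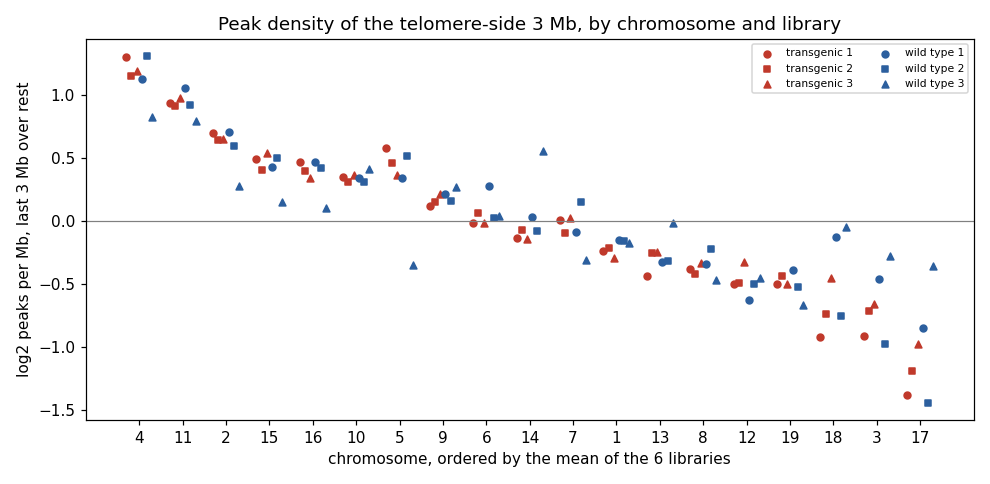
Log2 ratio of peaks per Mb in the last 3 Mb of each autosome over the rest of the same chromosome, 1 point per library (red transgenic, blue wild type), chromosomes ordered by the mean of the 6 libraries. Points run from 1.15 on average on chromosome 4 to -1.03 on chromosome 17, and libraries of both groups lie together on most chromosomes, with wild type 3 nearer 0 at both extremes.

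The same was seen in the share of all peaks a window holds. No end window had all 3 transgenic libraries above all 3 wild-type libraries, against 3.41% of the 792 windows, and 1 end window, that of chromosome 1, had them all below, against 2.02%. At the end of chromosome 1 the density relative to the autosomal mean was 0.726, 0.752 and 0.718 in the transgenic lists, against 0.818, 0.765 and 0.846 in the wild-type lists.

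Gene content moved with peak density. The end windows held 1397 gene starts, 718 of them protein-coding, or 12.6 protein-coding genes per Mb, against 8.50 in the rest. Over the 19 chromosomes the log2 end-to-rest ratio of protein-coding genes and that of peaks had a Pearson r of 0.814 and a Spearman rho of 0.867, given as a description over 19 chromosomes that share the same 6 libraries. In single libraries the Spearman rho was 0.814, 0.833 and 0.875 in transgenic lists, against 0.816, 0.809 and 0.761 in wild-type lists. The relation was not confined to the ends. Between relative peak density and the number of protein-coding genes per window, rho was 0.701 over all 792 windows and 0.807 over the 19 end windows. Chromosome 10 had the largest excess of genes, 43 protein-coding genes per Mb at its end against 7.005 in its rest, and only 1.27-fold the peaks. Its window holds a large olfactory receptor cluster, described with the gene groups.

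**Figure D2:**
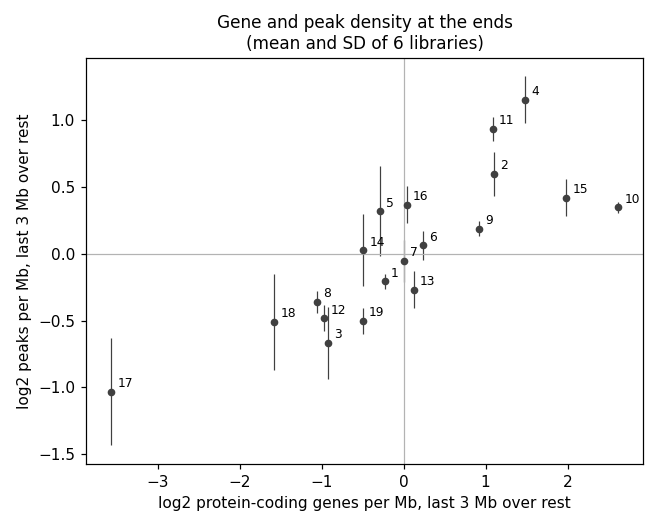
Log2 ratio of protein-coding genes per Mb (x) and of peaks per Mb (y), last 3 Mb over the rest, for each of the 19 autosomes, with the mean of the 6 libraries as a point and the SD as a bar. The 2 ratios go together (Spearman rho 0.867), with chromosome 17 at the lower left, chromosome 4 at the top and chromosome 10 to the right at 1.27-fold the peaks.

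Peaks at the ends lay inside genes more often. In transgenic lists 66.9%, 66.2% and 64.4% of end peaks overlapped a gene, and 62.2%, 61.2% and 59.3% of peaks in the rest did. In wild-type lists the shares were 64.2%, 66.3% and 59.0% at the ends and 57.9%, 60.8% and 52.3% in the rest. The ends were higher in 6 of 6 libraries, by 5.54 ± 0.786 percentage points (SD, n = 6; exact sign-flip permutation test, p = 0.03125). With 2 Mb windows the excess was 1.88 points and no longer passed (exact permutation p = 0.0625). At 3 Mb it was 4.93 ± 0.192 points in transgenic and 6.16 ± 0.606 points in wild-type libraries (SD, n = 3 each), and the groups did not overlap (difference -1.23 points, exact permutation p = 0.10, the smallest possible). When each list was limited to its 30640 strongest peaks, this difference was 0.389 points, and with 2 Mb windows 0.640 points. Without wild type 3 it was -0.959 points. Gene spans cover 52.4% of the end windows and 49.3% of the rest.

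By chromosome, the excess passed on 9 ends (47.4%) and the reverse on 5 (26.3%), each with an adjusted p of 0.0424 in the exact sign-flip permutation test. Of all 792 windows, 38.9% had a share of peaks in genes above the rest of their chromosome in all 6 lists and 42% had one below it. The end of chromosome 14 had the largest excess, 27.4 percentage points, and gene spans cover 86.9% of that window. On chromosome 17 the share fell by 57.5 percentage points relative to its rest, and gene spans cover 5.07% of the window. Genes with a peak within 1000 bp of either of their ends made up 31.6%, 28.1% and 21.2% of the end windows' genes in transgenic lists, against 14.4%, 29.6% and 6.23% in wild-type lists. That was 2.28 ± 1.39 points above the genes of the rest (SD, n = 6; higher in 6 of 6, exact permutation p = 0.03125), -0.842 points with 2 Mb windows (exact permutation p = 0.125), 4.55 points with 5 Mb windows and 1.31 points with the 30640 strongest peaks of each list.

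With 3 Mb windows and all peaks, neither the width nor the score of end peaks differed from the rest past the threshold. The log2 ratio of median widths was 0.011 ± 0.0156 (SD, n = 6; exact permutation p = 0.1875) and that of median scores was -0.008 ± 0.0284 (exact permutation p = 0.50). With 2 Mb windows the width ratio was 0.0490, with 5 Mb windows the score ratio was -0.0613, and with each list limited to its 30640 strongest peaks the score ratio was -0.0475 (exact permutation p = 0.03125 for each). In single chromosomes none passed (smallest adjusted p = 0.0848 for width and 0.0660 for score). Score ratios ran from -0.146 on chromosome 4, the densest end, to 0.582 on chromosome 18 and 0.513 on chromosome 17, which are among the sparsest.

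Within the last 10 Mb the density of peaks was uneven, a pattern found after the values were seen. Relative to the autosomal mean, the last 100 kb stood at 1.42 ± 0.194 in transgenic and 1.72 ± 0.415 in wild-type libraries (SD, n = 3 each). Wild type 3 was the highest library there, at 2.18. The window's edge is itself a peak, and without the regions that set it the 6 libraries were between 1.19 and 1.91. From 250 to 500 kb the density was 0.781 ± 0.0543 in transgenic and 0.845 ± 0.0426 in wild-type libraries, and from 0.5 to 1 Mb it was 0.807 ± 0.0548 in transgenic and 0.893 ± 0.0832 in wild-type libraries, below 1 in 6 of 6 libraries. The density then rose inwards and from 5 to 7.5 Mb reached 1.75 ± 0.0774 in transgenic and 1.59 ± 0.190 in wild-type libraries. The 9 of 12 distance bins in which all libraries lay on one side of 1 had an adjusted p of 0.0417 (exact sign-flip permutation test, Benjamini-Hochberg over 12 bins). That test used bins added after values were seen, with the edge peaks kept, and measures only the spread between animals. No bin separated the groups (smallest adjusted exact permutation p = 0.514). Protein-coding gene starts ran otherwise, at 1.66 and 1.71 times their mean from 250 kb to 1 Mb, where peaks were sparse, and at 0.923 from 7.5 to 10 Mb.

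**Figure D3:**
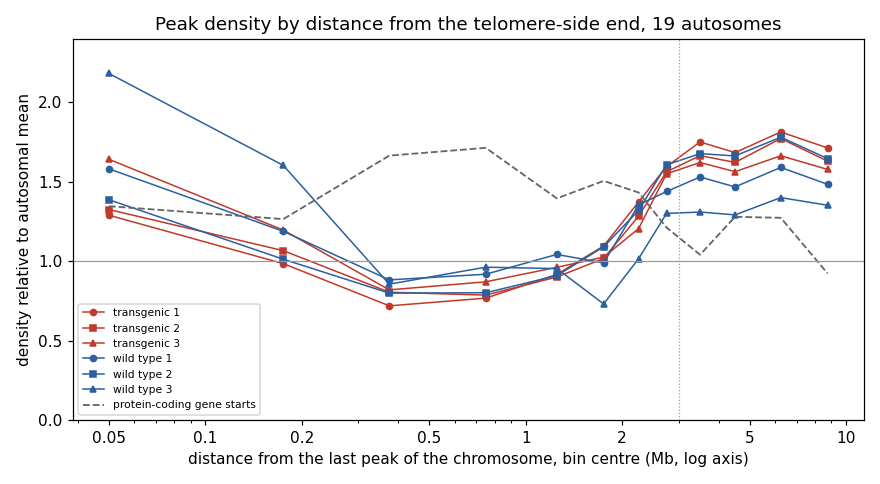
Peaks per Mb relative to each library's autosomal mean (y) against distance from the last peak of the chromosome (x, log axis), summed over 19 autosomes; red lines are transgenic, blue lines wild-type libraries, the dashed line protein-coding gene starts and the dotted line the 3 Mb edge. All 6 lines dip below 1 between 250 kb and 1 Mb and stand at 1.40 to 1.81 from 5 to 7.5 Mb.

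Set against the next 3 Mb towards the centromere, the ends were sparser in every library. This comparison was added after values were seen, and its p measures only the spread between animals. The ratio averaged 0.701-fold (mean log2 ratio -0.51 ± 0.12, SD, n = 6; below 0 in 6 of 6 libraries, exact sign-flip permutation test, p = 0.03125). It was -0.59 ± 0.07 in transgenic and -0.44 ± 0.13 in wild-type libraries (SD, n = 3 each; difference -0.15, exact permutation p = 0.20). The end was sparser in all 6 lists on 11 of 19 chromosomes and denser in all 6 on 2 (chromosomes 2 and 13), whereas over all 773 pairs of neighbouring windows the outer one was sparser in 29% and denser in 31.3%. Chromosomes 8 and 19 showed the steepest step, at 0.350-fold and 0.352-fold. The ends nevertheless held more protein-coding gene starts than these neighbours, 714 against 586. The step kept its direction with 2 Mb windows at -0.62, with 5 Mb windows at -0.32 and with the same number of peaks from each list at -0.21, so its size moved over 1.5 times.

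Regions with a peak in every list were a small share at the ends and in the rest. Merging the 6 lists gave 4135 end regions, of which 418 had a peak in all 6 lists (10.1%), against 10.6% of the regions in the rest. Their median width was 784 bp at the ends and 798 bp in the rest. In each window the shared region with the highest lowest score was taken, and 9 of these 19 lay in a protein-coding gene. The strongest, at the end of chromosome 4 and 3005 bp from Rnf223, a RING finger gene, scored 3100, 1671 and 1334 in the transgenic lists, against 644, 1078 and 461 in the wild-type lists. On chromosome 13 the region over Tmem267, a transmembrane protein gene, scored 1434, 763 and 1066 in the transgenic lists, against 471, 896 and 434 in the wild-type lists. In 17 of the 19 transgenic 1, the longest list, was highest.

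Among the others were bodies of neuronal and enzyme genes. The region in Chrna4, a subunit of neuronal nicotinic acetylcholine receptors (chromosome 2), scored 1090, 577 and 505 in the transgenic lists, against 180, 620 and 126 in the wild-type lists. The region in Cth, which makes cysteine from cystathionine (chromosome 3), scored 1308, 613 and 314 in the transgenic lists, against 186, 463 and 134 in the wild-type lists. In Lars2, the mitochondrial leucyl-tRNA synthetase (chromosome 9), the region scored 475, 602 and 368 in the transgenic lists, against 298, 1162 and 235 in the wild-type lists, with wild type 2 highest. Hhat, Shank2, Ccdc7b, Fscn2 and Tmem196 held the strongest shared region of chromosomes 1, 7, 8, 11 and 12.

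Gene families at the ends differed widely in how many members had a peak within 1000 bp of a gene end. For comparison, protein-coding genes of the end windows had one in 31.1%, 27.6% and 20.8% of cases in transgenic lists, against 14.3%, 28.7% and 5.43% in wild-type lists. Keratin genes, which encode the intermediate filament proteins of epithelia (type II keratins and the neighbouring type I keratin Krt18, chromosome 15), stood high, with 22, 20 and 14 of 26 genes in transgenic lists, against 7, 21 and 2 in wild-type lists. That is 84.6%, 76.9% and 53.8% in the transgenic lists, against 26.9%, 80.8% and 7.69% in the wild-type lists. Krt82, a hair keratin, had one in all 6 lists, Krt5, the keratin of basal cells, in 5, and Krt8 and Krt18, the keratins of simple epithelia, in 3 each. Krt1, a keratin of differentiated epidermis, had no peak in any list at its ends or inside.

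Hoxc genes, which pattern the body axis and lie in a CpG-rich cluster on the same chromosome, and the long noncoding RNA gene Hotair among them had no peak at an end or inside any of the 10 members in any list. Olfactory receptors of chromosome 10, a group added after values were seen, had one at an end in 2, 1 and 1 of 58 genes in transgenic lists, against 1, 2 and 0 in wild-type lists, and 55 had none in any list. Olfr784 had one in 5 lists. Keratin and Hoxc genes thus stood at opposite extremes within 1 window, and the count of wild type 3, the shortest list, was the lowest or tied for lowest in each of the 10 groups described.

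**Figure D4:**
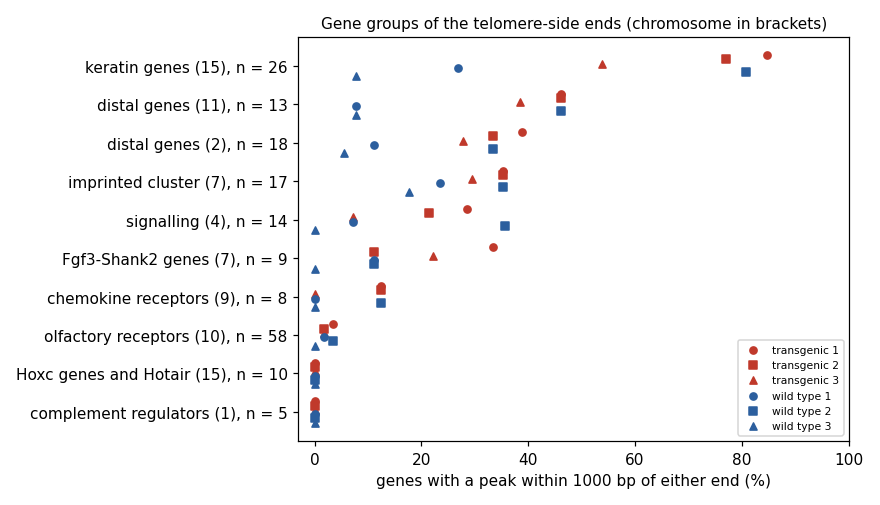
Share of genes with a peak within 1000 bp of either gene end (x, percent) in 10 gene groups of the end windows (y, chromosome in brackets, n = genes in the window), 1 point per library; red is transgenic, blue wild type. Keratin genes reach 84.6% in transgenic 1 and 80.8% in wild type 2, while the group of Hoxc genes and Hotair and the complement regulators stand at 0 in all 6 lists.

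In the imprinted cluster at the end of chromosome 7, the control region at Kcnq1ot1 had a peak in all 6 lists and that of H19 in 4. Kcnq1ot1 is a long noncoding RNA read from the paternal allele, and its start lies in an imprinting control region that is methylated on the maternal allele. A merged region at chr7:143294975-143296753, over that start, had a peak in all 6 lists, with scores of 829, 519 and 280 in the transgenic lists, against 112, 466 and 88.5 in the wild-type lists. The printed 300-base window itself overlapped a peak in 4 lists, all but wild type 1 and wild type 3. Cdkn1c, a maternally expressed inhibitor of the cell cycle, also had a region in all 6 lists, with 429, 294 and 113 in the transgenic lists, against 65.2, 226 and 74.7 in the wild-type lists. The unscaled scores of the groups overlapped at both.

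H19 and Igf2 share a control region upstream of H19 that is methylated on the paternal allele. A region there, chr7:142580001-142580793, had a peak in 4 lists, with 72.8 and 76.2 in transgenic 1 and 2, against 53.7 and 96.5 in wild type 1 and 2. A region inside H19, chr7:142576510-142577181, had a peak in 5 lists. It scored 240, 109 and 69.6 in the transgenic lists, against no peak, 126 and 60.7 in the wild-type lists. Upstream of Igf2, a fetal growth factor, a region at chr7:142667445-142668308 scored 653, 391 and 253 in the transgenic lists, against 170, 576 and no peak in the wild-type lists. In the whole cluster 6, 6 and 5 of 17 genes had a peak at an end in transgenic lists, against 4, 6 and 3 in wild-type lists. Ins2, Ascl2, Cd81, Tssc4 and Phlda2 had none at an end or inside in any list.

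The other groups lay nearer the average of the end windows. Of 18 distal genes of chromosome 2, 7, 6 and 5 had a peak at an end in transgenic lists, against 2, 6 and 1 in wild-type lists. The endothelial transcription factor gene Sox18 there had none at an end or inside, and Cdh4, a cadherin of the nervous system, had one at an end in 5 lists. Of 13 on chromosome 11 the counts were 6, 6 and 5 in transgenic lists, against 1, 6 and 1 in wild-type lists, and Actg1, a cytoplasmic actin, and Csnk1d, a kinase of the circadian clock, had one in 5 lists each. Of 14 signalling genes of chromosome 4, 4, 3 and 1 had one in transgenic lists, against 1, 5 and 0 in wild-type lists. Prdm16, a regulator of brown fat, had none at an end yet held 49, 35 and 28 peaks inside in transgenic lists, against 15, 41 and 9 in wild-type lists.

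Smaller sets gave few. Of 9 genes around Fgf3 and Shank2 on chromosome 7, 3, 1 and 2 had a peak at an end in transgenic lists, against 1, 1 and 0 in wild-type lists, with the growth factor gene Fgf3 in 5 lists. Of 8 chemokine receptors of chromosome 9, which guide leukocytes, 1, 1 and 0 had one in transgenic lists, against 0, 1 and 0 in wild-type lists. The complement regulators and neighbours of chromosome 1 had none at an end among 5 genes, and Cd46, which protects cells from complement, and Plxna2, a semaphorin receptor, had peaks inside in all 6 lists. Over all protein-coding genes of the end windows, 29 of 718 had a peak at an end in every list (4.04%) and 443 in none (61.7%), against 3.41% and 64.5% in the rest.

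The authors' deposited table listed 11 differential regions in the end windows, of 356 on the autosomes. In the authors' deposited table, higher values in transgenic lungs were found in 7 of them, 0.303% of the 2307 end regions found in at least 3 lists, against 0.306% over the autosomes. In the authors' deposited table, lower values were found in 4, 0.173%, against 0.0989% over the autosomes. With an FDR of 0.05 or less, 5 higher and 2 lower regions are left in the authors' deposited table. No share over the autosomes is given at that cut.

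Of the higher regions, the one with the smallest FDR in the authors' deposited table lay in Gtsf1, at 0.54 on the log2 scale (FDR 0.000606). It spans chr15:103410493-103412799 inside the gene, away from the Gtsf1 promoter printed above. It overlaps the promoter window of Gm52195, which is among the 6 end promoters with a peak in all 6 lists. Its scores were 1491, 1053 and 537 in the transgenic lists, against 285, 695 and 66.0 in the wild-type lists. The largest log2 value among the higher ones in the authors' deposited table was 1.17, 2723 bp from Olfr785, where scores were 731, 499 and 265 in the transgenic lists and 321 in wild type 2, with no peak in the other wild-type lists. In both regions wild type 2 exceeded transgenic 3 in peak score. Scores are not scaled between libraries and wild type 2 has the longer list, so this does not compare the groups.

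A region 0.747 kb from the last peak of chromosome 18, nearest to Tmx3, a thioredoxin-related protein gene 15520 bp away, stood at 1.12 on the log2 scale in the authors' deposited table. Its scores were 543, 429 and 249 in the transgenic lists, against 50.4, 233 and no peak in the wild-type lists. On chromosome 14 the authors' deposited table had higher regions in Pcca, an enzyme of propionate breakdown, at 0.89 on the log2 scale, in Fgf14, a regulator of sodium channels, at 0.62, and in Itgbl1, an integrin-like gene, at 0.54. The last of the 7, near BC147527 on chromosome 13 and 22.5 kb from the last peak, had 0.68 in the authors' deposited table. All 3 transgenic lists and wild type 2 had a peak in each of the 7.

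The lower regions had weaker peaks. The lowest log2 value in the authors' deposited table was -2.91 in Kcnh1, a potassium channel gene of chromosome 1 (FDR 0.0169). Its only transgenic peak was in transgenic 3, at 88.0, against 203, 130 and 316 in the wild-type lists. In Cdh4 the authors' deposited table gave -1.72, with peaks of 63.5 and 67.0 in transgenic 1 and 2, against 169 in wild type 2 alone. In Zfp740, a zinc finger gene, and Lyzl4, a lysozyme-like gene, it was -1.22 and -1.30 in the authors' deposited table. Wild type 2 was again the only wild-type list with a peak, at 160 and 163. The transgenic lists had weaker peaks there, of 55.41, 52.45 and 61.72 in Zfp740. In Lyzl4 they were 54.1 in transgenic 1 and 65.18 in transgenic 3. The part of wild type 2 in these 3 folds was not tested.

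**Figure D5:**
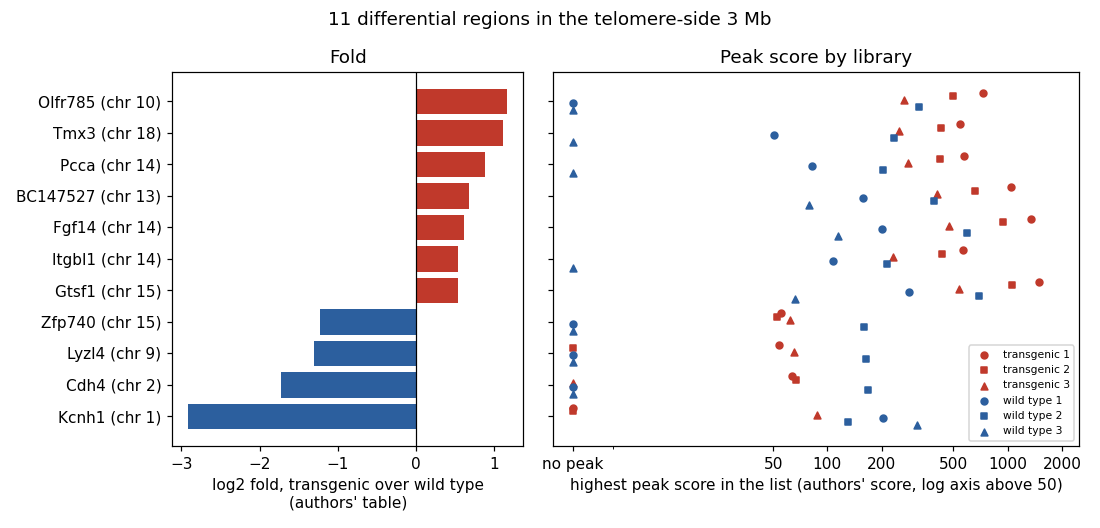
The 11 differential regions of the end windows, named by the overlapping or nearest protein-coding gene. Left, log2 fold of transgenic over wild type from the authors' deposited table; right, the highest peak score in each list (log axis above 50; red transgenic, blue wild type). Folds run from 1.17 to -2.91, and in Zfp740, Lyzl4 and Cdh4 wild type 2 is the only wild-type list with a peak.

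Regions with a peak in all lists of one group and none of the other were described from the merged lists. In the end windows 66 regions were seen in all 3 transgenic lists and no wild-type list (1.60%), against 1.84% over the autosomes. The opposite pattern was seen in 1 region, in Endov, an endonuclease gene of chromosome 11 (0.0242%), against 0.0152%. The count for transgenic lists was 116 without transgenic 2, 231 without transgenic 3 and 533 without wild type 2, and with the other libraries left out it was 73 to 97. That for wild-type lists was 3 without transgenic 2, 2 without transgenic 3, 9 without wild type 1, 7 without wild type 2 and 22 without wild type 3. Leaving out a library removes one of the conditions a region must meet, and wild type 1 and wild type 3 had the shortest lists. No share over the autosomes is given for the counts with a library left out.

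Of the 66, 44 lay in a gene and 6 within 1000 bp of a gene end. Among all single end peaks, 66.9%, 66.2% and 64.4% in the transgenic lists overlapped a gene. No share over all merged end regions is given for either count. The strongest of the 6 at a gene end, at chr2:180388928-180389450 on Mir1a-1, a muscle microRNA gene, scored 139, 130 and 98.2 in the transgenic lists. A region in Baz2a, a chromatin remodelling gene, at the end of the gene Gm51821 (chromosome 10), scored 108, 101 and 96.9. The others lay at Tprgl, Gm9279, Gm42358 and Dnah11, an axonemal dynein gene, with a lowest score of 57.6 or less.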

How the data were processed

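Genomic DNA from the lungs of 3 transgenic and 3 wild-type mice was enriched for methylated fragments with a commercial kit and sequenced, per the labels' protocols. Bowtie, DiffBind, edgeR and the build mm10 are named in the submitters' processing notes, without versions. The authors called peaks library by library, and each deposited peak has a score, the caller's own value with a minimum of 50 and 3100 as the value at which the strongest peaks gather. For differential regions, the authors deposited log2 concentrations and a log2 fold, with a p-value and FDR for each region, and starts are printed as their table has them. For caller settings, normalization and depth, the sources used here give nothing. List length stands in for depth only in part.

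Gene spans and promoter sequences came from RefSeq tables of GRCm38.p6, the assembly of mm10; the span table gives no strand, so both gene ends were used, plus or minus 1000 bp. Densities were peaks per Mb, and assembly gaps were not removed. The rest of a chromosome ran from its smallest peak start to the window. A gene belongs to a window when it starts at or above the window's start. Peaks from all 6 lists that overlapped or touched were joined into merged regions. Ends and rest were compared by two-sided exact sign-flip permutation tests over 6 libraries (smallest p 0.03125), groups by two-sided exact permutation tests (smallest p 0.10), with Benjamini-Hochberg adjustment over chromosomes. The labels call the animals biological replicates. Python 3.11.15, numpy 2.4.6, pandas 2.3.3, scipy 1.17.1 and matplotlib 3.10.9 were used.

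The members, gene lists and tests were chosen with earlier results of these data known, and the adjacent window, the distance bins, the olfactory group and the printed promoters were added after values were seen. Regions named were the strongest region shared by all lists in each window, every differential region in a window, up to 6 regions specific to each group at a gene end, and members of 9 positional lists; Ccrl2, Cd55 and Cd55b lay outside the windows and Scnn1d was not matched. Alternatives were windows of 2 and 5 Mb, an equal number of top-scoring peaks, peaks scoring at least the pooled median, the median chromosome, peaks inside or outside genes, each chromosome or library left out, other gene, merging and FDR rules, and a replicate block.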

Additional observations from a re-analysis of the deposited data

How the results depend on the processing

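Read depth is unknown, and the libraries differ in list length, which limits what can be said of a region without a peak. The excess of peaks at the ends changed with the choices. With 5 Mb windows it was 0.384 (exact permutation p = 0.03125), with 2 Mb windows -0.0529 (exact permutation p = 0.15625), and the median over chromosomes gave -0.0107. Peaks outside genes gave 0.0290 and peaks scoring at least the pooled median 0.0993, neither past the threshold. With 2 Mb windows the width ratio was 0.0490 (exact permutation p = 0.03125), the score ratio 0.0925, the excess of peaks in genes 1.88 points (exact permutation p = 0.0625), the excess of genes with a peak -0.842 points (exact permutation p = 0.125) and the ratio to the centromere side -0.248 (exact permutation p = 0.03125). There the differences of transgenic minus wild type were -0.0632 for density, 0.0013 for width, 0.640 points for peaks in genes and -1.13 points for genes with a peak. The counts were then 4 chromosomes with a denser end, 36 regions seen in transgenic lists alone, 0 in wild-type lists alone and 1 lower differential region in the authors' deposited table.

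With 5 Mb windows the score ratio was -0.0613 (exact permutation p = 0.03125), the ratio to the centromere side 0.297 (exact permutation p = 0.0625), and the differences between groups 0.0028 for width and -0.0048 for score, with 148 regions in transgenic lists alone and 9 lower differential regions in the authors' deposited table. When each list was limited to its 30640 strongest peaks, the density difference was -0.0127, the width ratio -0.0214, the score ratio -0.0475 (exact permutation p = 0.03125) and its difference -0.00026. The difference for peaks in genes was then 0.389 points, the ratio to the centromere side -0.252 (exact permutation p = 0.03125), and the group-specific counts 16 in transgenic and 2 in wild-type lists. For peaks scoring at least the pooled median the width ratio was -0.0085, its difference 0.0043, the score difference -0.0472 and the ratio to the centromere side -0.207 (exact permutation p = 0.03125). The density difference was -0.0465 with the median over chromosomes, -0.0332 for peaks overlapping genes and -0.0161 with the chromosome left out that gave the lowest value. Merging at 100 bp shared left 0 regions in wild-type lists alone. An FDR of 0.05 or less left 5 higher and 2 lower differential regions in the authors' deposited table. For these group differences none passed, and 3 against 3 cannot pass. Of the 92 values without a library left out, 52 were classed as unchanged. For tested values this meant the same direction and the same side of the threshold, which group differences could not cross. Counts have no direction and no test, and for them it meant only a similar size. The number of chromosomes with a denser end, for example, was classed as unchanged at 10 as reported and 14 with 5 Mb windows.

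With each library left out, a test over 5 libraries cannot go below 0.0625, so the tested ratios miss the threshold by construction. The density ratio ran from 0.137 to 0.162, the ratio to the adjacent window from -0.55 to -0.49, the excess of peaks in genes from 5.31 to 5.71 points and that of genes with a peak from 1.92 to 2.64 points. The ratio to the centromere side ran from -0.0192 to 0.0489, the density difference from -0.0323 to 0.0296 and the width difference from -0.0083 to 0.0104. Group-specific counts ran from 73 to 533 in transgenic and from 1 to 22 in wild-type lists. No share over the autosomes is given for group-specific counts under any alternative setting.

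With the replicate number as a block the difference in density was 0.0035 (exact permutation p = 1). That in peaks in genes was -1.23 points (exact permutation p = 0.25, the smallest 3 pairs allow). No call could change, since neither 3 pairs nor 3 against 3 can pass. Deviations of equal numbers had r = 0.109, -0.404 and 0.676, which cannot tell whether the samples share more than a number.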
